A study of Mus musculus with 4 samples.

Results

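*Arl4c*, *Lpcat3*, *Abca7*, *Smpdl3a* and *Tgm2* are 5 reported targets of the liver X receptors (LXR) among the 32285 genes counted. They were selected on measured values, as reported targets whose ratio between a library from mice given the LXR agonist RGX-104 and a control library lay near 1 in most cell types. Those ratios are therefore described here, without a test. The cells were T cells and antigen-presenting cells (APCs) sorted by flow cytometry from the tumor-draining lymph nodes of wild-type mice. One group ate control chow, and the other ate chow containing RGX-104 from day 3 after the injection of tumor cells; nodes of both groups were taken on day 8. Each chow has 1 RNA library (10x 5' single-cell chemistry), so no difference between chows has a replicate check, and how many mice each library pools, their age and the tumor line are not given in the sources used here.

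LXRs are nuclear receptors that sense oxysterols. LXRα (*Nr1h3*) and LXRβ (*Nr1h2*) pair with retinoid X receptors on DNA, typically at a direct repeat of a short motif with 4 bases between the copies, where they hold corepressors without ligand and coactivators with it. Their best known targets export cholesterol (*Abca1*, *Abcg1*) and make fatty acids (*Srebf1*, *Scd1*, *Scd2*). The 5 genes have more varied roles. *Arl4c* encodes a small ARF-like GTPase that recruits cytohesins to the plasma membrane and acts in trafficking and cell shape. *Lpcat3* encodes the acyltransferase that places polyunsaturated fatty acids into membrane phospholipids. *Abca7* encodes a lipid transporter related to *Abca1*, *Smpdl3a* a secreted nucleotide phosphodiesterase related to acid sphingomyelinase, and *Tgm2* transglutaminase 2, which crosslinks proteins and takes part in the uptake of dying cells.

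Each gene had 1 row in the count matrices. In GRCm38.p6, the assembly behind mm10, RefSeq places *Arl4c* (ENSMUSG00000049866) at chr1:88698225-88702191, *Lpcat3* (ENSMUSG00000004270) at chr6:124663094-124704716, *Abca7* (ENSMUSG00000035722) at chr10:79996453-80015572, *Smpdl3a* (ENSMUSG00000019872) at chr10:57794544-57811830 and *Tgm2* (ENSMUSG00000037820) at chr2:158116405-158146392. All 5 are protein coding.

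The RefSeq promoter table of GRCm38.p6 held windows for 3 of the 5 genes and for *Abca1*, which is shown for comparison because it had the highest ratio of the listed targets in APCs. For the 3 members, the 120 bases before the RefSeq gene span are printed 5′ to 3′ on the strand of the gene: chr1:88702192-88702311 (minus strand) for *Arl4c*, chr6:124662974-124663093 (plus strand) for *Lpcat3* and chr10:79996333-79996452 (plus strand) for *Abca7*. For *Abca1* (minus strand) only the match at chr4:53159947-53159962 is printed. Capitals mark the motif copies of a match, on either strand, to a direct repeat of AGGTCA with any 4 bases between the copies and at most 3 mismatches over both copies.
Arl4c: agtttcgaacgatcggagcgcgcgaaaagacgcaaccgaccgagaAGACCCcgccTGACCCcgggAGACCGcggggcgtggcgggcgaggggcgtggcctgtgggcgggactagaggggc
Lpcat3: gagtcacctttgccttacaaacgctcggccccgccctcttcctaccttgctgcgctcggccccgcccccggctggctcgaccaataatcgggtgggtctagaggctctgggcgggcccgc
Abca7: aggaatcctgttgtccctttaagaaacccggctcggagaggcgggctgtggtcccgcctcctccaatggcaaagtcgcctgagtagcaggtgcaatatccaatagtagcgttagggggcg
Abca1: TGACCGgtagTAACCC
Over the whole windows of 300 bases (250 before and 50 after the start site the table uses, which for *Abca7*, *Lpcat3* and *Abca1* lies 41, 10 and 93 bases inside the gene span), *Arl4c* had 2 matches, which share 1 motif copy and begin 75 and 65 bases before the start site, and *Abca1* had 1, 67 bases before it. *Lpcat3* and *Abca7* had 0. Each of the 3 matches had 3 mismatches. Of 32544 promoter windows, 21.9% held a match at that setting and 3.03% held one with at most 2 mismatches; the setting was widened from 2 to 3 after *Abca1* showed no match at 2. A match is a description of letters.

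The authors' annotation covered 782 control and 949 RGX-104 APCs (median 8051.5 and 9043 UMIs per cell) and 2099 and 1995 T cells (4944 and 5048 UMIs), in 10 APC and 12 T cell types. The 2 libraries shared 95 barcodes of 7346 and 8671, of which 15 were annotated in both. Types are named as in the annotation, where the prefixes are not spelled out; the fixed marker lists were highest in the type of that name for rcDC1 (*Xcr1*, *Clec9a*), mLC (*Cd207*, *Epcam*), macrophages (*C1qa*, *Adgre1*), Treg and gd T cells in both libraries. The follicular helper list was higher in Treg and gd T cells than in Tfh, and the monocyte list was higher in macrophages than in mono. The cDC2 list was highest in rcDC2 in the control library (941 CPM), but in the RGX-104 library it was higher in pre-DC2 (1302 CPM) and macrophages (1059) than in rcDC2 (909). Values are counts per 1000000 UMIs (CPM), summed over the cells of a type. Ratios are RGX-104 to control, with 95% exact conditional binomial intervals in brackets, and all intervals cover counting error only. A gene counts as measured in a set of cells with at least 50 UMIs over both libraries, and as higher or lower at a ratio of at least 1.5 or at most 0.667; types were compared with at least 50 cells in each library, which left 6 APC and 8 T cell types.

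In all APCs, 3 of the 5 genes were higher with RGX-104 by the 1.5-fold rule, as were 4.14% of 10346 measured genes, and 0 were lower (4.44% of genes). These were *Lpcat3* at 2.17 (1.68 to 2.82), *Tgm2* at 1.80 (1.48 to 2.21) and *Arl4c* at 1.74 (1.62 to 1.87). The count was 2 without *Tgm2* in 4 other settings, in which *Tgm2* stood at 1.40 without macrophages, 1.23 as a mean over cells, 1.22 with cells thinned to 2000 UMIs and 1.016 with the compared types weighted equally. *Abca7*, at 1.06 (0.91 to 1.23), and *Smpdl3a*, at 0.93 (0.80 to 1.07), lay near 1. In all T cells, 0 of 4 measured members were higher by that rule (2.92% of 10214 genes) and 0 were lower (1.66%). There *Lpcat3* stood at 1.25 (1.06 to 1.47), *Arl4c* at 1.15 (1.09 to 1.22), *Abca7* at 1.06 (0.93 to 1.22) and *Smpdl3a* at 0.85 (0.76 to 0.94), while *Tgm2* had 1 and 4 UMIs. The median log2 ratio of the members was 0.80 in APCs and 0.15 in T cells, against -0.06 and -0.01 over all measured genes.

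The other listed LXR targets give the scale. Of 22, 17 were measured in APCs, with 10 higher and 2 lower and a median log2 ratio of 1.37; 13 were measured in T cells, with 10 higher, 0 lower and a median of 1.28. *Abca1*, the cholesterol exporter, went from 6.84 to 99.1 CPM in APCs, a ratio of 14.5 (10.9 to 19.7), and from 13.8 to 115 CPM in T cells, a ratio of 8.31 (7.04 to 9.87). It passed 1.5-fold in 14 of 14 compared types. The targets below 1.5 in APCs also included *Npc2* at 1.09, *Npc1* at 0.79 and *Pltp*, a phospholipid transfer protein, at 0.77, and the 2 lower ones were *Apoc2* at 0.63 and *Nr1h3* at 0.59. *Lpcat3*, *Tgm2* and *Arl4c* stood just under the 10 higher targets in APCs.

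**Figure D1:**
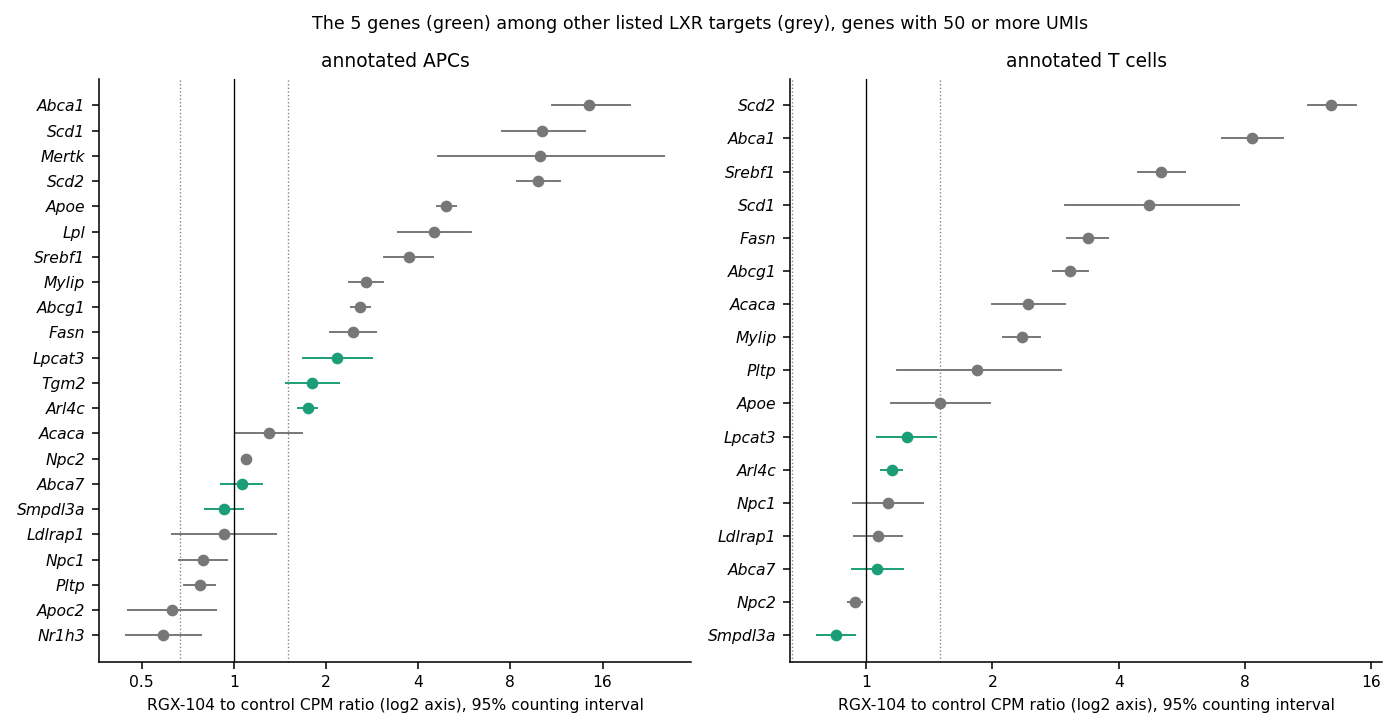
RGX-104 to control CPM ratio (log2 axis) of the 5 genes (green) and other listed LXR targets (grey) with at least 50 UMIs, in annotated APCs (left) and T cells (right). Points are ratios from 1 library per chow, lines 95% counting intervals, dotted lines the 1.5-fold bounds. *Lpcat3*, *Tgm2* and *Arl4c* lie between 1.74 and 2.17 in APCs, and no member reaches 1.5 in T cells.

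*Arl4c* passed 1.5-fold in 5 of the 14 compared types and was measured in all of them. That was the highest count of the members among measured types. *Lpcat3*, however, was measured in 2 of 6 compared APC and 5 of 8 compared T cell types, and *Tgm2* in 2 and 0. Below the UMI minimum *Lpcat3* stood above 1.5 in mcDC1 (4.56), mono (1.84), Tfh (1.55) and CD8_03 (1.53), on few UMIs. It stood below 1.5 in mLC (1.42), mcDC2 (1.28) and Treg (1.03). The ranking thus depends on the minimum. In pooled APCs *Arl4c* had 1047 UMIs (143 CPM) in the control and 2483 (249 CPM) in the RGX-104 library. In rcDC1 it went from 85 to 237 UMIs, 38.7 to 92.4 CPM, a ratio of 2.39 (1.86 to 3.10), where 4.2% of measured genes passed 1.5-fold upward. In rcDC2 it went from 115 to 585 UMIs, 152 to 357 CPM, a ratio of 2.34 (1.91 to 2.88; 6.77% of genes). These were the 2 compared types with the highest ratio of *Arl4c*. The Poisson intervals of the 2 libraries did not overlap in either, nor in mcDC1, mcDC2, mLC, Treg and Tfh.

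Another dendritic cell type, mcDC2, reached 1.52 (1.196 to 1.94), from 202 to 307 CPM (6.39% of genes higher). Below the bound were mLC at 1.39 (1.18 to 1.63; 4.08%), mcDC1 at 1.26 (1.10 to 1.44; 4.46%) and mono at 1.15 (0.89 to 1.48; 7.8%). All 6 compared APC types had an *Arl4c* ratio above 1, and 5 of the 6 counting intervals excluded 1. These ratios took part in choosing the gene, and the share of all genes with such intervals is not given. Of 8 compared T cell types, Tfh and Treg passed 1.5-fold. Treg went from 95 to 139 UMIs, 148 to 259 CPM, at 1.74 (1.33 to 2.29; 4.59% of genes higher), and Tfh from 114 to 133 UMIs, 157 to 238 CPM, at 1.52 (1.18 to 1.97; 4.3%).

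The *Arl4c* intervals of Treg and Tfh included the 1.5-fold bound, as did that of mcDC2, whose ratio was 1.52. Without cells holding 2 or more UMIs of B, macrophage, monocyte or cDC1 markers the Treg ratio was 1.41, and without counting the monocyte markers, of which T cells express *Ly6c2*, it was 1.58 and that of Tfh 1.48. Cells thinned to 2000 UMIs gave 1.48 in Tfh. The *Arl4c* ratio in the other 6 T cell types ran from 0.998 in Th1_01 to 1.23 in Th1_03. Between them lay CD8_01 (3.63% of genes higher), CD8_02 (3.2%), CD8_03 (4.59%) and Th1_02 (3.65%); the share was 4.25% in Th1_01 and 4.76% in Th1_03. The 8 types with fewer than 50 cells in a library ran both ways for *Arl4c*. It was 3.59 (2.12 to 6.40) in pre-DC2 from 18 and 71 UMIs, 3.27 (1.77 to 6.69) in macrophages from 11 and 149, and 2.67 (0.61 to 9.27) in pDC from 10 and 4. Among T cells it was 2.26 (1.15 to 4.46) in gd T cells from 18 and 22 UMIs, 2.11 (1.29 to 3.63) in Cytotoxic T from 20 and 86, 1.54 (0.99 to 2.47) in Bcat1+ T from 29 and 70, and 0.91 (0.62 to 1.34) in IFN-responsive T from 46 and 77. In Gm26917+ mcDC it was 0.54 (0.21 to 1.49) from 8 and 14 UMIs.

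Among the 14 compared types rcDC1, which had the highest *Arl4c* ratio, had the lowest control level, which is also the denominator of that ratio. The control order over the 20 types with at least 20 cells ran from mLC at 247 CPM, CD8_01 at 241 and mcDC1 at 239 down to gd T cells at 48.3, rcDC1 at 38.7 and pDC at 20.4. In that order no neighbouring pair had separate intervals, but the ends did. Within the cDC1 pair the control level was 6.19 times (4.87 to 7.94) higher in mcDC1 than in rcDC1, and in the RGX-104 library 3.25 times (2.79 to 3.79). For the cDC2 pair, mcDC2 was 1.33 times (0.996 to 1.76) rcDC2 in the control and 0.86 times (0.75 to 0.99) in the RGX-104 library. Treg held 0.62 times (0.49 to 0.77) the level of CD8_01 in the control and 1.002 times (0.83 to 1.21) in the RGX-104 library.

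The share of rcDC2 with an *Arl4c* UMI was 58.6% (Clopper-Pearson 47.5 to 69.1) and 87.4% (81.4 to 92.0), with median depths of 9007 and 9235 UMIs; thinned to 2000 UMIs per cell it was 25.1% and 48.9%. As a low reference, 3.65% and 7.24% of unannotated barcodes with B cell markers held one, at 3109 and 3049.5 UMIs. Thinned to 2000 UMIs these shares were 2.34% and 4.41%. This reference was itself higher in the RGX-104 library, with an *Arl4c* ratio of 2.47 (1.78 to 3.47). Migratory dendritic cell markers (*Ccr7*, *Fscn1*, *Cacnb3*), which are high in the *Arl4c*-rich mLC and mcDC1, summed to 76.9 and 111 CPM in rcDC1 and to 498 and 558 in rcDC2 in the control and RGX-104 libraries, against 10602 and 8916 in mcDC1. Monocyte markers summed to 1010 and 1785 CPM in rcDC2; their part in the *Arl4c* values was not tested.

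**Figure D2:**
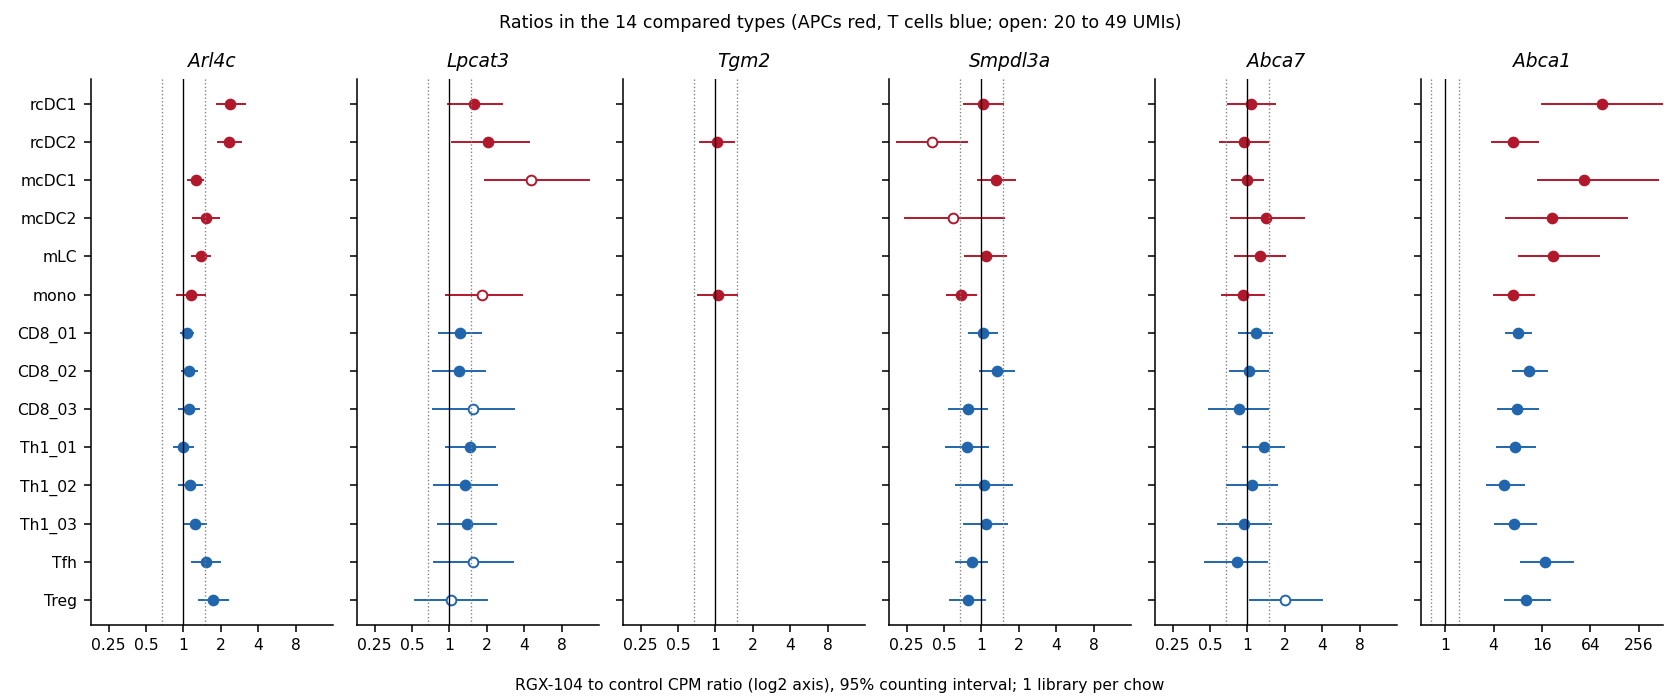
RGX-104 to control CPM ratio (log2 axes, wider for *Abca1*) in the 14 compared types for the 5 genes and *Abca1*. Filled points have at least 50 UMIs, open points 20 to 49, types with fewer are left out; lines are 95% counting intervals from 1 library per chow. *Arl4c* is highest in rcDC1 (2.39) and rcDC2 (2.34), while *Abca7* stays between 0.82 and 1.41 where it has 50 UMIs.

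*Lpcat3*, the phospholipid acyltransferase, had few UMIs, and its pooled ratio was higher in APCs than in T cells. Pooled APCs had 81 and 239 UMIs (11.1 and 24.0 CPM). It went from 11 to 49 UMIs in rcDC2, at 2.05 (1.05 to 4.37), and from 27 to 50 in rcDC1, at 1.59 (0.97 to 2.64), an interval that includes 1. These were the 2 compared APC types that reached 50 UMIs, both through the counts of the RGX-104 library, so no share is read from them. The rcDC1 value was 1.31 with cells thinned to 2000 UMIs and 1.48 without cells holding other lineages' transcripts.

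Below 50 UMIs, *Lpcat3* went from 6 to 39 in mcDC1, at 4.56 (1.92 to 13.2), from 13 to 30 in mono, at 1.84 (0.93 to 3.85), from 5 to 7 in mLC, at 1.42 (0.39 to 5.67), and from 5 to 14 in mcDC2, at 1.28 (0.44 to 4.54). Neutrophil markers (*S100a8*, *S100a9*, *Elane*) summed to 0 UMIs in control mcDC1 and to 1083 in the RGX-104 library, where 4 cells held them and 1 cell held 1080. Without those 4 cells the *Lpcat3* ratio in mcDC1 was 4.66 (1.96 to 13.5) on 6 and 39 UMIs. The 6 control UMIs of mcDC1 gave the lowest *Lpcat3* level of the 20 control types with at least 20 cells, 4.17 CPM. In pre-DC2 it went from 4 to 17 UMIs, at 3.87 (1.26 to 15.8), and macrophages held 1 and 30, a ratio of 7.23 with a wide interval (1.203 to 295). The 5 T cell types measured ran from 1.19 in CD8_02 to 1.46 in Th1_01, all above 1, and each interval included 1. Compared T cell types under 50 UMIs were Tfh, from 16 to 19 UMIs (22.0 to 34.1 CPM), and CD8_03, from 13 to 22 (11.4 to 17.4 CPM). Treg went from 22 to 19 UMIs (34.4 to 35.3 CPM). Among T cell types with fewer than 50 cells in a library, Cytotoxic T held 3 and 15 UMIs, IFN-responsive T 2 and 7, and Bcat1+ T 10 and 19. Of those 20 control types gd T cells had the highest *Lpcat3* level, 85.8 CPM (58.7 to 121), apart from the next type, Treg, at 34.4 (21.5 to 52.0). With RGX-104 the gd T cell level was 104 CPM, 1.21 times (0.66 to 2.17) the control.

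*Tgm2* was found almost only in 3 APC types. In the control library its level was 127 CPM (76.3 to 198) in macrophages, 103 (77.7 to 134) in mono and 76.8 (58.3 to 99.3) in rcDC2. These 3 did not separate from each other, and the next type, mcDC2 at 11.2 (3.65 to 26.2), lay below all of them. In mono, 56 and 73 UMIs gave a ratio of 1.04 (0.72 to 1.502), and in rcDC2, 58 and 129 UMIs gave 1.023 (0.74 to 1.42). So neither compared type with 50 UMIs was near the pooled APC ratio of 1.80.

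Macrophages, with 27 and 52 cells, held 19 and 124 *Tgm2* UMIs, 127 and 199 CPM, a ratio of 1.57 (0.97 to 2.70). They gave 13.5% of the *Tgm2* UMIs of control APCs and 35.8% in the RGX-104 library, as their share of APCs went from 3.45% to 5.48% and their median depth from 4415 to 11398 UMIs. The share of rcDC2 among APCs went from 11.1% to 17.6%. Without macrophages the pooled ratio was 1.40 (1.11 to 1.76), and without pDC it was 1.69 (1.39 to 2.07). With the 6 compared types weighted equally it was 1.016, a setting that also leaves out macrophages and the other APC types under 50 cells in a library. In macrophages the T cell markers summed to 80.1 and 30.6 CPM and the macrophage markers to 4230 and 6927; their part in the *Tgm2* values was not tested. The share of macrophages with a *Tgm2* UMI was 40.7% (22.4 to 61.2) and 61.5% (47.0 to 74.7), against 0.0476% and 0.201% of T cells, which are not known for the gene, at median depths of 4944 and 5048 UMIs.

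Elsewhere *Tgm2* counts were small. It had 5 UMIs and then 1 in mcDC2. In rcDC1 it had 0 and 11, of which 6 came from 1 cell. Setting the control library to 3 counts gave a ratio of 3.14, and the lower limit of the counting interval was 2.15.

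**Figure D3:**
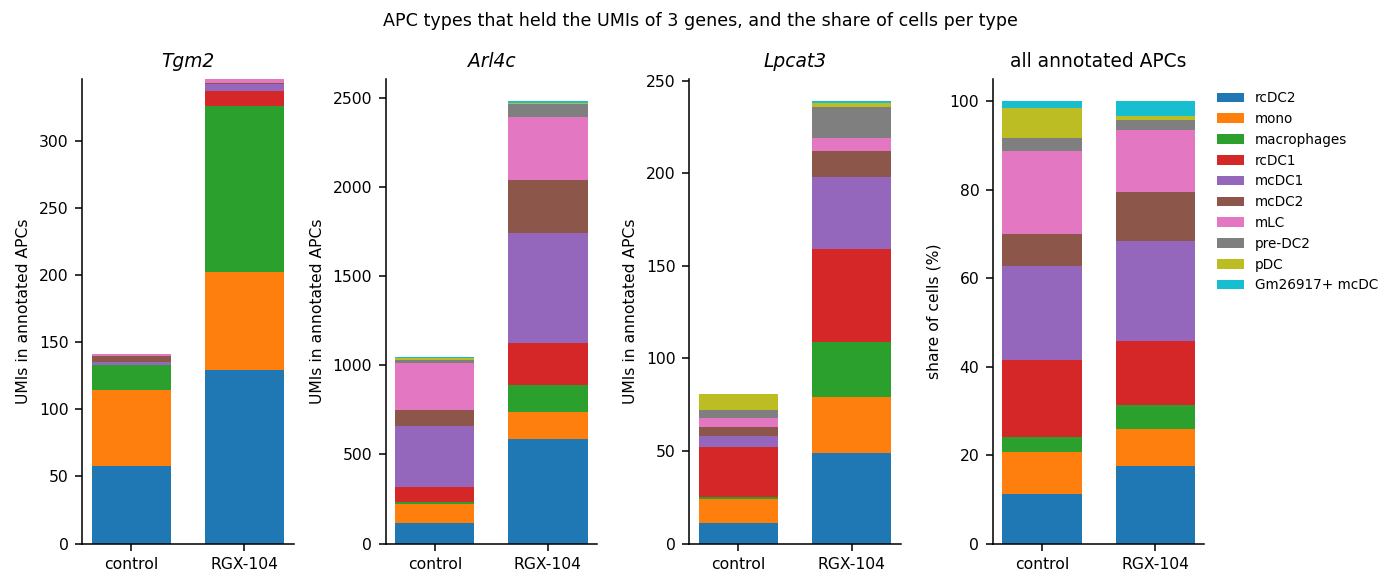
UMIs of *Tgm2*, *Arl4c* and *Lpcat3* in annotated APCs of the control and RGX-104 libraries (bars from 0, stacked by type) and, at right, the share of APCs per type in percent. Macrophages hold 19 and 124 of the *Tgm2* UMIs, while the largest shares of the *Arl4c* UMIs lie in mcDC1, mLC and rcDC2.

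*Abca7*, the lipid transporter, had pooled ratios near 1. Pooled APCs had 292 and 421 UMIs (39.9 and 42.3 CPM) and T cells 404 and 424 (35.2 and 37.5 CPM). Across 6 APC types its ratio ran from 0.92 in mono to 1.41 in mcDC2, and across 7 measured T cell types from 0.82 in Tfh to 1.35 in Th1_01. None of these 13 intervals excluded 1. Treg, the other compared T cell type, had 43 UMIs and stood at 2.01 (1.04 to 3.99). It went from 16 to 27 UMIs, of which 4 UMIs was the most in 1 RGX-104 cell. Types with fewer than 50 cells in a library ran both ways on small counts. The ratio was 3.80 (0.87 to 34.4) in IFN-responsive T from 2 and 14 UMIs and 3.03 (0.78 to 17.1) in pre-DC2 from 3 and 10. In gd T cells it was 0.59 (0.21 to 1.42) from 22 and 7. Of the 20 control types with at least 20 cells, *Abca7* was highest in mono, at 95.5 CPM (71.3 to 125), which had 88.0 CPM (67.2 to 113) in the RGX-104 library. Gm26917+ mcDC, with 12 and 32 cells, lay above it in both libraries, at 307 CPM (124 to 633) from 7 UMIs and 190 CPM (104 to 318) from 14.

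*Smpdl3a*, the phosphodiesterase, had 48.6 and 45.0 CPM in pooled APCs and 68.2 and 57.9 in T cells. In mono, its top control type at 231 CPM (193 to 276), it went from 126 to 109 UMIs and 231 to 160 CPM, a ratio of 0.69 (0.53 to 0.90), which did not reach the 0.667 bound. In rcDC2 it went from 23 to 20 UMIs and 30.5 to 12.2 CPM, a ratio of 0.40 (0.21 to 0.76) on 43 UMIs. The other 3 measured APC types were above 1, up to 1.31 (0.94 to 1.85) in mcDC1. In T cells, 4 of 8 types were above 1 and 4 below, from 0.77 in Th1_01 to 1.33 in CD8_02, and every interval included 1.

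The levels of *Smpdl3a* differed among the T cell types. In control cells it was 215 CPM in gd T cells, 172 in Tfh and 153 in Treg (124 to 187), and 63.8 or less in the other T cell types apart from Cytotoxic T. That type had 124 CPM (83.2 to 178) in 16 control cells, an interval that overlaps Treg, and 73.6 CPM (51.3 to 102) in 44 RGX-104 cells. Treg held 3.30 times (2.51 to 4.34) the level of CD8_01 in the control library and 2.50 times (1.81 to 3.42) in the RGX-104 library, and gd T cells 4.63 and 4.36 times. Treg and gd T cells thus stood above CD8_01 under both chows.

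**Figure D4:**
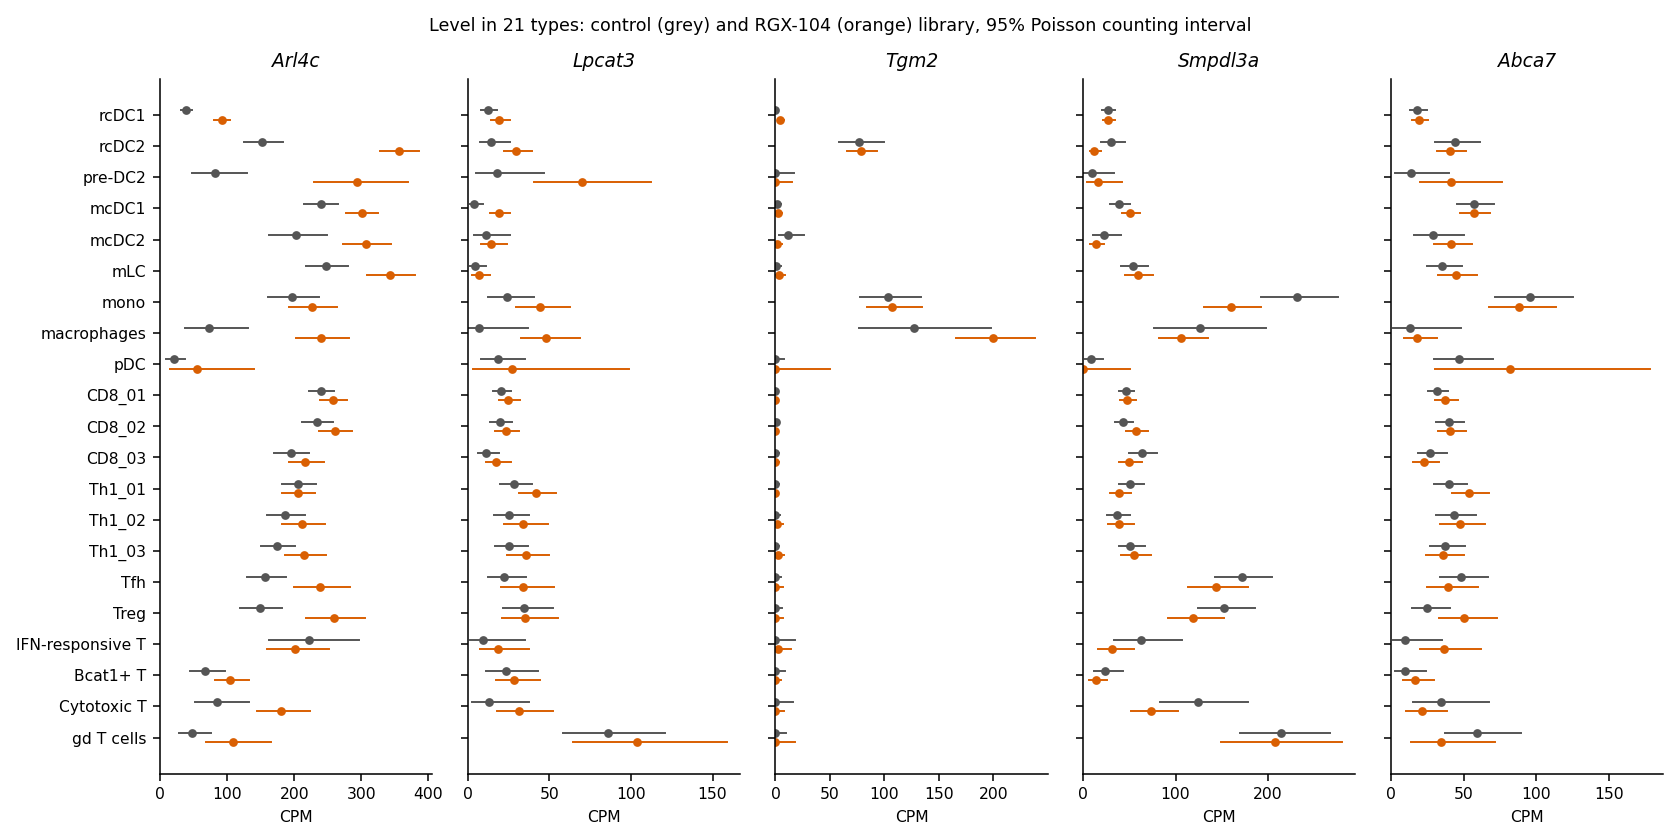
CPM of the 5 genes in 21 annotated types, control (grey) and RGX-104 (orange) library, with 95% Poisson counting intervals. *Tgm2* is highest in macrophages, mono and rcDC2, *Smpdl3a* is high in mono, gd T cells, Tfh and Treg under both chows, and *Arl4c* is lowest in pDC, at 20.4 CPM in the control library.

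The relatives and partners of each gene were listed as families. Over all measured genes, 4.14% were higher and 4.44% lower in APCs, and 2.92% and 1.66% in T cells. Of 9 measured ARF-like and cytohesin genes, 0 were higher and 0 lower in APCs and in T cells, which is near those shares. In APCs *Arl4a* stood at 0.89 (0.73 to 1.07) and *Arf6* at 1.004 (0.93 to 1.08). Of 7 measured phospholipid remodelling genes in APCs, 1 was higher, *Lpcat2*, which makes platelet-activating factor, at 2.39 (1.95 to 2.94), and 0 of 5 in T cells. Among the ABCA transporters only *Abca1* passed 1.5, of 5 measured in APCs and 3 in T cells. In the sphingomyelin list, 5 genes were measured in APCs and 4 in T cells. *Smpd1*, acid sphingomyelinase, was lower in APCs at 0.47 (0.32 to 0.69), and *Asah1*, acid ceramidase, was higher in T cells at 1.62 (1.29 to 2.04). Below 50 UMIs, *Smpdl3b* went from 5 to 37 UMIs in T cells, at 7.50 (2.94 to 24.4). In APCs it was 1.36 (0.92 to 2.04). Of the transglutaminases, 1 was measured, *F13a1*, at 0.45 (0.34 to 0.60) in APCs.

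The receptors themselves were present in both libraries. *Nr1h2* was 56.0 and 55.6 CPM in APCs, a ratio of 0.99 (0.87 to 1.13), and 49.1 and 52.5 in T cells, at 1.07 (0.95 to 1.202). *Nr1h3* sat mostly in macrophages and mono. It went from 454 to 86.9 CPM in macrophages, at 0.19 (0.13 to 0.28), and from 56.9 to 24.9 in mono, at 0.44 (0.23 to 0.82), which are 2 of the 3 types with the highest *Tgm2* level.

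Genes with a pattern over types like that of each member were ranked by Pearson r of log2(CPM + 10) over the 20 control types with at least 20 cells, among 8841 genes. These r describe types that share a library and depth, and carry no p. *Tgm2* was most like *Adgre1*, the macrophage antigen F4/80 (r = 0.99, and 0.97 over 21 types in the RGX-104 library), *Clec4a3* (0.94 and 0.96) and *Il1rn* (0.93 and 0.87). *Arl4c* was most like *Ccr7*, the chemokine receptor that guides cells to lymph nodes (0.83 and 0.33), *Arrb2* (0.83 and 0.46) and *Trim5* (0.80 and 0.59). *Lpcat3* was most like *Isca1* (0.88 and 0.53), *Tecr* (0.86 and 0.50) and *Por* (0.85 and 0.63). *Smpdl3a* was most like *Zfp703* (0.81 and 0.58), *Fam160a2* and *Vamp4*, and *Abca7* like *Cog3* (0.81 and 0.42), *Gskip* (0.79 and -0.48) and *Xpa* (0.79 and -0.10). The likeness was thus close in both libraries for *Tgm2*, and lower in the RGX-104 library for the top gene of each other member; the genes were chosen on the control values.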

How the data were processed

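The matrices deposited by the authors are UMI counts for each gene in each barcode. Their headers name Cell Ranger 5.0.0. The mm10 build and Seurat 5.0.3 appear in the submitters' processing notes. The annotation tables deposited by the authors give each cell its UMI and gene counts, a mitochondrial percent and a type, without barcodes. Cells were joined to barcodes by those 3 values, with genes seen in at least 3 barcodes; all 5825 annotated cells matched 1 barcode each. The 2 TCR libraries were not used here.

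Counts were summed per library and type and divided by the summed total (CPM). With 1 library per chow no test was run. Ratios carry exact conditional binomial, CPM exact Poisson and shares Clopper-Pearson 95% intervals (scipy 1.17.1). Only the ratio intervals were tried on simulated data. Those were Poisson counts without spread between cells, so they could not check the intervals against such spread. All intervals cover counting error only. The floor for a count of 0 is 3 counts per library. The members, gene lists and thresholds were chosen with earlier results of these data known. Named genes are the members, *Abca1*, the 3 genes most like each member in control cells (at least 100 UMIs), and up to 4 genes per list past 1.5-fold. *Npc1*, *Npc2*, *Pltp*, *Arl4a*, *Arf6* and *Smpdl3b*, the values by type of the receptors, and types under 50 cells or 50 UMIs were named after their values were seen.

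Alternatives were median-of-ratios factors, TMM factors (edgeR 4.0.16, R 4.3.3), a total that leaves out ribosomal protein, mitochondrial, immunoglobulin and receptor genes, per-cell means, equal weights per type, removal of the 1 cell with most UMIs, thinning to 2000 UMIs, removal of cells with 2 or more UMIs of another lineage, APCs without macrophages or without pDC, minimums of 10 and 200 UMIs, and 2-fold. Chosen after seeing the data were APCs without macrophages, mono and rcDC2, mcDC1 without cells holding neutrophil markers, and the lineage filter without monocyte markers in T cells. The latter was added because the planned filter removed 566 control and 633 RGX-104 T cells, many of them CD8 T cells, and the narrower one 59 and 62. No doublet caller was run here, since the authors' doublet column calls every annotated cell a singlet. Sequences come from RefSeq tables of GRCm38.p6.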

Additional observations from a re-analysis of the deposited data

Results flagged for a closer look

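Barcodes without an annotation, 4465 of the control and 5727 of the RGX-104 barcodes (median 1147 and 1161 UMIs), lie outside the comparisons above, and 3 of the genes had a ratio there whose counting interval lay above 1. *Arl4c* stood at 1.31 (1.22 to 1.40), from 1331 and 2346 UMIs. *Lpcat3* stood at 1.31 (1.13 to 1.52), from 284 and 501 UMIs. *Abca7* stood at 1.204 (1.08 to 1.35), from 503 and 817 UMIs. The share of all genes with such an interval is not given here. *Nr1h2*, near 1 in annotated cells, stood at 1.20 (1.08 to 1.32), and the retinoid X receptor gene *Rxrb* at 0.997 (0.88 to 1.13). *Abca1* was 4.62 (4.22 to 5.07) in the same barcodes. Among these, 1015 and 1368 barcodes had at least 2 of 4 B cell markers and 0 of 3 T cell markers, and there *Arl4c* went from 50 to 147 UMIs, 11.7 to 28.7 CPM, a ratio of 2.47 (1.78 to 3.47). The unannotated barcodes are absent from the authors' tables and were not sorted into types here. Of them, 2858 control and 3552 RGX-104 barcodes had under 2000 UMIs, and whether each holds an intact cell was not tested.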

How the results depend on the processing

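For pooled cells, 171 of 183 alternative values stayed within the main counting interval (or 1.5 times the main count), 12 moved and 0 reversed; for single types, 227 of 228 stayed and 1 moved. *Arl4c* in APCs was 1.61 as a mean over cells, 1.51 with equal weights for the compared types and 1.61 thinned to 2000 UMIs. *Tgm2* in APCs was 1.23, 1.016 and 1.22 under the same settings, and 1.40 without macrophages. Without macrophages, mono and rcDC2 it was 2.09 (0.88 to 5.49) on 8 and 20 UMIs. *Smpdl3a* in APCs was 0.80 with equal weights. Of the members, 2 in place of 3 were higher in APCs under the 4 settings that put *Tgm2* below 1.5, and 1 was at 2-fold. The 2 listed LXR targets lower in APCs became 4 with equal weights, 1 at a minimum of 200 UMIs and 0 at 2-fold. *Arl4c* in CD8_03 was 1.38 without cells holding transcripts of another lineage, and 1.11 when monocyte markers were not counted, as with all cells; the planned filter removed 143 of 176 control and 153 of 182 RGX-104 cells of that type. No replicate could be left out, with 1 library per chow. No paired analysis was possible because each chow has 1 library. Depth limits *Lpcat3* and *Tgm2* most: *Lpcat3* had under 50 UMIs in 4 of 6 compared APC types, and in 3 of these the interval held both 1 and 1.5.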
